A study of Homo sapiens with 48 samples.

Results

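The late step of the coculture is the interval between 8 h and 12 h in KLHL6-KO cells. It was described from the 3 libraries labelled KLHL6-KO at 12 h and the 3 labelled KLHL6-KO at 8 h, chosen by their titles alone, which are 6 of the 48 libraries of the series. The cells are U2932, an established human line of diffuse large B-cell lymphoma, in which KLHL6 had been knocked out. They were kept on OP9-DLL1, a mouse stromal line that stably expresses the NOTCH ligand DLL1. Whether mouse reads were removed is not given in the sources used here. WT U2932 cells on the same stroma at 12 h and 8 h (3 libraries each) are the comparison for genotype, and KLHL6-KO cells at 0 h and 3 h give the earlier levels. The labels name no other agent in the coculture, and they do not say how KLHL6 was disrupted or whether the knockout line is 1 clone. They call the replicates biological without saying which cultures they came from, so the p-values speak only of the scatter among these libraries, which may be technical.

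KLHL6 is a substrate adaptor of a cullin-3 ubiquitin ligase that is expressed in B cells. NOTCH receptors are cleaved when a neighbouring cell presents a ligand such as DLL1. The released intracellular part joins the DNA-binding protein RBPJ and switches on targets of the HES and HEY families. In germinal-centre B cells and the lymphomas related to them, transcription also follows MYC, the E2F factors, NF-kB and the folding load of the endoplasmic reticulum (ER). Low oxygen stabilises the HIF factors, which induce glucose uptake, glycolysis and angiogenic factors.

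Poly(A) RNA was sequenced to between 12.2 and 14.1 M reads in the 6 libraries. Levels are the deposited normalised counts, called counts from here on. Changes are log2 coefficients ± SE from limma, 12 h against 8 h, with the Benjamini-Hochberg adjusted p over 15032 genes, and a gene was called at an adjusted p under 0.05. Replicate 1 stood furthest from the others of its group at both times, with a chi-square per degree of freedom of 5.68 and 13.8 against the other 12 h libraries and of 5.76 against both other 8 h libraries. The remaining pairs were at 4.25 at 12 h and 1.67 at 8 h, where counting noise alone gives 1. The share of reads from the mitochondrial genome was 17.8, 15.1 and 12.8% at 12 h, against 13.7, 12.2 and 12% at 8 h. The 6 B-cell markers were all expressed, among them MS4A1 with 17013 ± 261 counts at 12 h and 17453 ± 433 at 8 h, PAX5 with 4169 ± 299 counts at 12 h and 4635 ± 287 at 8 h and CD22 with 5102 ± 73.6 counts at 12 h and 5244 ± 8.13 at 8 h. Of the 21 markers of stromal cells 15 passed the filter on low values, and none of the 15 was called by limma, edgeR or DESeq2 or had an unadjusted p under 0.05. Their summed level over all 21 was 668 to 782 counts at 12 h, 683 to 734 at 8 h and 360.2 to 400.2 at 0 h. Markers of other cells were few. Of 8 macrophage markers 1 passed the filter, their sum was 10.5 to 13.4 counts at 12 h and 11.2 to 18.4 at 8 h, and CSF1R, MARCO, CD163 and FCGR1A had 0. Of 7 endothelial markers 1 passed, with sums of 3.09 to 5.23 at 12 h and 4.83 to 8.16 at 8 h, and CDH5, VWF and KDR had 0. Of 9 T and NK cell markers CD247 alone passed, with sums of 49.1 to 55.6 at 12 h and 32.6 to 46.4 at 8 h, and CD3G, CD2 and NKG7 had 0. None of 6 adipocyte markers passed, with sums of 1.05 to 3.09 at 12 h and 1.81 to 2.03 at 8 h.

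The knocked-out gene was checked in every group. KLHL6 (ENSG00000172578, chromosome 3, 183487531 to 183555689), in GRCh38 as annotated in GENCODE 29 like all positions of genes here, had 2645, 2449 and 2326 counts at 12 h, against 2476, 1915 and 1924 at 8 h in KLHL6-KO cells. WT cells had 5914, 5445 and 4837 counts at 12 h, against 5735, 4135 and 4213 at 8 h. At 0 h and 3 h it averaged 2381 ± 177 and 2866 ± 214 counts in KLHL6-KO cells, against 5389 ± 747 and 4434 ± 90.7 in WT cells. At 12 h and 8 h all 6 KLHL6-KO libraries lay below all 6 WT libraries, with transcript still present. Over the late step KLHL6 changed by 0.24 ± 0.12 (adjusted p = 0.24) in KLHL6-KO cells, which was not called. In a limma fit with a replicate block it was called higher (adjusted p = 0.014).

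Between 8 h and 12 h, KLHL6-KO cells raised genes of glucose uptake, glycolysis and the hypoxia response together with ER chaperones, and lowered MYC and genes of DNA replication. Of 15032 genes 1785 were called (11.9%), of which 883 rose (5.87%) and 902 fell (6%). Changes were small: the median size among called genes was 0.34 on the log2 scale, 80.8% of them changed by less than 1.5-fold, and 77 rose (0.512%) and 17 fell (0.113%) by at least 2-fold. The median log2 change over all genes was -0.001. The libraries of the 2 times did not overlap for 4585 genes (30.5%), and 3736 had an unadjusted p under 0.05 (24.9%). Among the 1785 called genes 1749 had no overlap (98.0%), so for a called gene the lack of overlap is description and not further support. For the largest rises and falls the naming rule required it. In bulk RNA, a change in the number of cells of a kind and a change of RNA per cell cannot be told apart. The mitochondrial share of reads was highest in 12 h replicates 1 and 2, and its part in these counts was not tested. The total fell to 1135 without 12 h replicate 1, 1182 without 12 h replicate 3, 1019 without 8 h replicate 2 and 984 without both replicate 1 libraries.

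**Figure D1:**
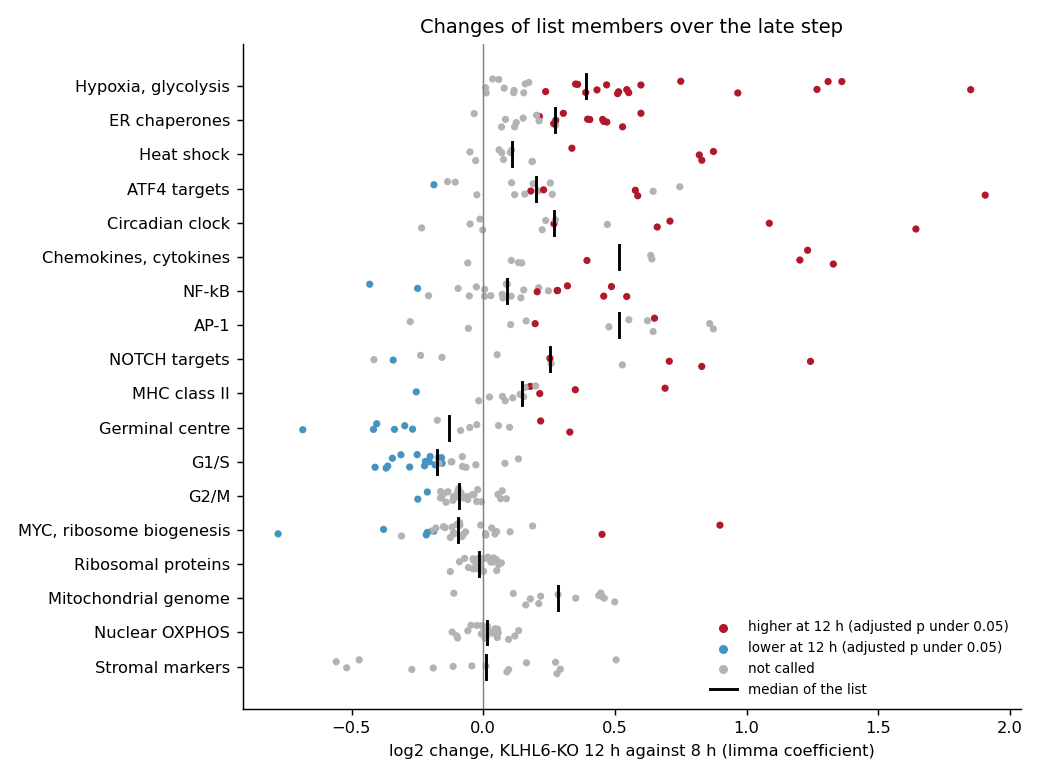
Each point is a tested member of a gene list, placed by its log2 change between 12 h and 8 h in KLHL6-KO cells (limma coefficient, 3 libraries against 3). Red marks members called higher at 12 h, blue members called lower and grey members not called, and black bars are list medians, which run from -0.18 for the G1/S list to 0.52 for the AP-1 list and for chemokines; vertical scatter within a row has no meaning.

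Genes of the hypoxia response and glycolysis rose in 17 of 27 tested cases and none was called lower. The list held 30 genes, and EGLN3, CA9 and NDRG1 did not pass the filter. All 27 coefficients were positive, with a median of 0.39 against -0.001 over all genes. Leaving out 1 library gave 15 to 18 called members, and leaving out both replicate 1 libraries gave 14.

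HILPDA (ENSG00000135245, chromosome 7, 128455849 to 128458418), a lipid-droplet protein that inhibits triglyceride breakdown, had 1190.3, 985 and 931 counts at 12 h, against 282, 289 and 281 at 8 h. All 12 h libraries stood more than 3-fold above all 8 h libraries, a change of 1.85 ± 0.27 (adjusted p = 2.5e-04). VEGFA (ENSG00000112715, chromosome 6, 43770184 to 43786487), which encodes the angiogenic factor VEGF-A, had 1002, 1035 and 835 counts at 12 h, against 445, 385 and 359 at 8 h. Its groups were also far apart (1.27 ± 0.20, adjusted p = 3.6e-04). DDIT4 (ENSG00000168209, chromosome 10, 72273920 to 72276036), an inhibitor of the growth kinase mTORC1, had 529, 516 and 425 counts at 12 h, against 188, 222 and 161 at 8 h, with all 12 h values above all 8 h values (1.36 ± 0.25, adjusted p = 0.0017). The host transcript of miR-210, a microRNA induced by HIF, behaved alike: MIR210HG (ENSG00000247095, chromosome 11, 565660 to 568457) had 156, 126 and 115 counts at 12 h, against 55.3, 32.9 and 25.4 at 8 h (1.81 ± 0.32, adjusted p = 9.8e-04).

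Sugar handling contributed at uptake and at the regulatory steps. The glucose transporter SLC2A3 had 199.6, 188 and 157 counts at 12 h, against 90.6, 90.9 and 92.6 at 8 h, a change of 0.97 ± 0.14 (adjusted p = 1.5e-05) between groups that did not overlap. SLC2A1, the other transporter of the list, rose less (0.35 ± 0.08, adjusted p = 0.0039). PFKFB4, which sets the level of the glycolytic activator fructose 2,6-bisphosphate, had 167, 148 and 146 counts at 12 h, against 79.8, 53.2 and 52.9 at 8 h. Again every 12 h library was above every 8 h library (1.31 ± 0.22, adjusted p = 4.2e-04). Its relative PFKFB3 (0.60 ± 0.11, adjusted p = 6.2e-04), the hexokinases HK2 (0.43 ± 0.10, adjusted p = 0.0042) and HK1 (0.36 ± 0.07, adjusted p = 0.0011) and the enolase ENO2 (0.51 ± 0.09, adjusted p = 2.3e-04) rose as well. In the central steps of glycolysis the aldolase ALDOA (0.47 ± 0.13, adjusted p = 0.014) and the mutase PGAM1 (0.24 ± 0.06, adjusted p = 0.0069) rose. GPI, PFKL, PFKP, TPI1, GAPDH, PGK1, ENO1, PKM and LDHA were not called. GAPDH had 41768 ± 1514 counts at 12 h and 41464 ± 2393 at 8 h (0.01 ± 0.07, adjusted p = 0.95). PKM had 54242 ± 1632 counts at 12 h and 51317 ± 1039 at 8 h (0.08 ± 0.05, adjusted p = 0.37). LDHA had 18518 ± 1879.9 counts at 12 h and 16594 ± 752 at 8 h (0.15 ± 0.07, adjusted p = 0.13). ADM, a vasodilator peptide, had 948, 860.2 and 728 counts at 12 h, against 578, 487 and 440.5 at 8 h (0.75 ± 0.09, adjusted p = 7.1e-07). BNIP3, a receptor for the removal of mitochondria, had 345, 335 and 320.3 counts at 12 h, against 244, 230.1 and 208 at 8 h (0.55 ± 0.10, adjusted p = 1.8e-04), and P4HA1, a collagen prolyl hydroxylase, went with them (0.55 ± 0.10, adjusted p = 2.8e-04). Values of these genes in single libraries are in the plot of hypoxia and glycolysis genes. ALDOA was not called without 12 h replicate 1 or 8 h replicate 1 or 3 or both replicate 1 libraries (adjusted p = 0.051 to 0.17). PGAM1 was not called without 12 h replicate 2 or both replicate 1 libraries (adjusted p = 0.053 to 0.057). LDHA was called without 12 h replicate 3 (adjusted p = 0.030). PFKP was called without 8 h replicate 1 or with a replicate block (adjusted p = 0.023 to 0.035).

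**Figure D2:**
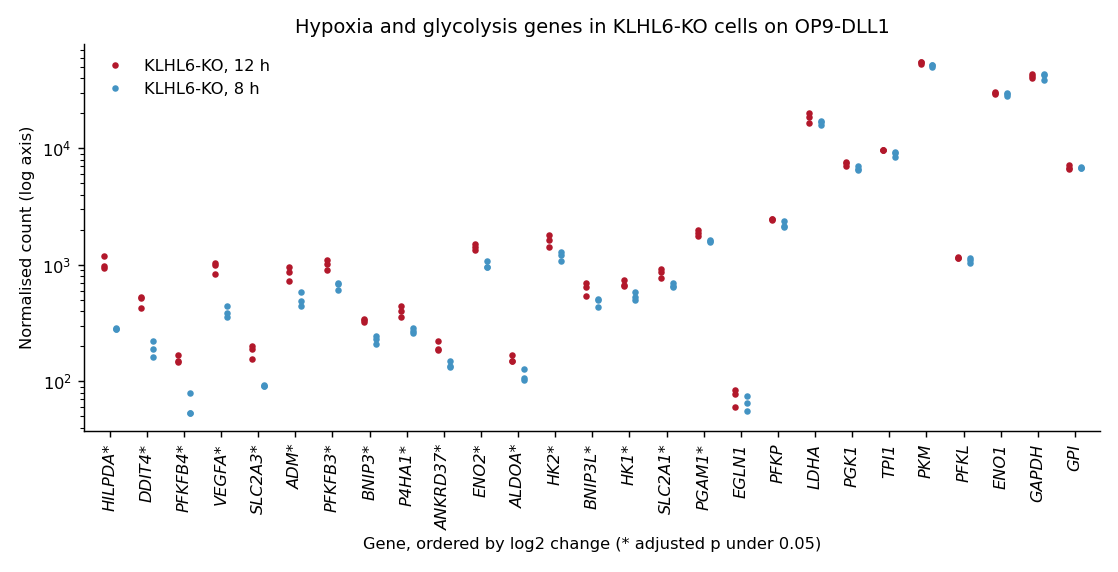
Normalised counts (log axis) of the 27 tested hypoxia and glycolysis genes in KLHL6-KO cells, 1 point per library, with 12 h in red to the left of 8 h in blue; genes run from the largest to the smallest log2 change and an asterisk marks an adjusted p under 0.05. The 17 called genes stand at the left, from HILPDA to PGAM1, and GAPDH, ENO1 and GPI at the right lie at the same level at both times.

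Earlier levels place this rise in the time course. In KLHL6-KO cells HILPDA stood at 1468 ± 104 counts at 0 h, 206 ± 12.2 at 3 h, 284 ± 4.51 at 8 h and 1035 ± 137 at 12 h. VEGFA stood at 898 ± 18, 356 ± 21.5, 396 ± 44.1 and 957 ± 107 counts at the same times. Both were high before coculture, low at 3 h and 8 h and high again at 12 h. SLC2A3 differed from them in its level before coculture, with 86.1 ± 4.07, 57.8 ± 9.51, 91.4 ± 1.05 and 181 ± 22.3 counts. The comparisons of 8 h with 3 h and of 12 h with 0 h share libraries with the late step, so their values are only set beside it. At 8 h against 3 h, 7 of the 27 genes were called higher and 4 lower (of all genes 26.5% were called, 13.1% higher and 13.4% lower), with a median of -0.07. At 12 h against 0 h, 5 were higher and 8 lower (of all genes 40.5%, 20.6% higher and 20% lower), with a median of -0.06.

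Promoter windows of risen hypoxia genes are shown because ACGTG is the core of sites that HIF binds. It was searched on both strands in the 250 bases before each start in RefSeq promoters of GRCh38.p14. Windows were listed for 23 of the 27 tested members and 15 of the 23 held the core, as did 8 of the 13 called members with a window. Among all 27305 genes with a window 21.7% held it, and 29.2% of the 10119 tested in these cells. The E-box CACGTG holds the core on both strands, and 7 of the 23 members had one, against 7.73% of all genes and 11.4% of the tested ones. A match is a description of letters and does not show binding. Only risen genes whose window holds the core are printed, and whether matches go with the change was not tested. The windows of MIR210HG (chr11:568458-568707 on the minus strand), DDIT4 (chr10:72273674-72273923 on the plus strand), PFKFB3 (chr10:6202682-6202931 on the plus strand) and BNIP3 (chr10:131981924-131982173 on the minus strand) read 5′ to 3′ on the strand of the gene, with matches in capitals.
MIR210HG: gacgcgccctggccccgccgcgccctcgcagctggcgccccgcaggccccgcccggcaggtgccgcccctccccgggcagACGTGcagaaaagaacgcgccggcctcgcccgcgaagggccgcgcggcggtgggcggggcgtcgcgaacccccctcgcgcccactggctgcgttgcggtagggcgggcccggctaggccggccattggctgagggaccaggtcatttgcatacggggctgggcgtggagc
DDIT4: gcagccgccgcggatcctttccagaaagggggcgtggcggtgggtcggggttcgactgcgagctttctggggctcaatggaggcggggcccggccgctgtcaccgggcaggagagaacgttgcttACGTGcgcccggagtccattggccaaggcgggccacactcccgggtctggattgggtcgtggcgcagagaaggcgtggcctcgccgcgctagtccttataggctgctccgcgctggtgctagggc
PFKFB3: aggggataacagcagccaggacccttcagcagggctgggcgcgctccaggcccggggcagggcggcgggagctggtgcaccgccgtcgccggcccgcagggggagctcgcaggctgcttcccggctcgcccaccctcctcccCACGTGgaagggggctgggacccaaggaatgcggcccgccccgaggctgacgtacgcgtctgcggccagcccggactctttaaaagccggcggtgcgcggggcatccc
BNIP3: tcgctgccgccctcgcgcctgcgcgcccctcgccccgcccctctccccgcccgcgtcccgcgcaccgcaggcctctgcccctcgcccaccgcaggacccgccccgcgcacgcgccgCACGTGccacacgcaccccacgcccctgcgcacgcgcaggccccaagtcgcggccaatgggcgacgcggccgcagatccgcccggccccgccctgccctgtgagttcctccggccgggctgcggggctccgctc
In DDIT4 and MIR210HG the core occurs once, starting 125 and 170 bases before the start. PFKFB3 and BNIP3 carry the palindromic E-box, starting 108 and 134 bases before it.

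ER chaperones and their partners rose as a second group. All 20 genes of the list were tested, 11 rose and none fell, with 19 positive coefficients and a median of 0.27. Between 11 and 13 were called when 1 library was left out, and 10 without both replicate 1 libraries. HSPA5 (ENSG00000044574, chromosome 9, 125234853 to 125241330), the main chaperone of the ER lumen (BiP), had 9974, 9732 and 10156 counts at 12 h, against 6542, 7095 and 7064 at 8 h. Its 12 h libraries were 1 tight group above the 8 h libraries (0.53 ± 0.05, adjusted p = 1.6e-08). HERPUD1 (ENSG00000051108, chromosome 16, 56932048 to 56944863), a membrane protein of ER-associated degradation, had 2951, 3038 and 3054 counts at 12 h, against 2028, 1939 and 2001 at 8 h and the smallest p of the list (0.60 ± 0.05, adjusted p = 6.0e-10). DNAJC3, a co-chaperone of BiP, had 1659, 1677 and 1668 counts at 12 h, against 1305, 1202 and 1274 at 8 h (0.40 ± 0.07, adjusted p = 6.7e-05), and the coat protein SEC24D, which exports cargo from the ER, had 747, 740.0 and 781 counts at 12 h, against 590.1, 509 and 540.2 at 8 h (0.47 ± 0.08, adjusted p = 5.1e-05). For these members, too, the groups were apart. Secreted or lumenal folding factors rose with them: MANF by 0.46 ± 0.09 (adjusted p = 9.9e-04), SDF2L1 by 0.45 ± 0.10 (adjusted p = 0.0018), CRELD2 by 0.40 ± 0.07 (adjusted p = 3.7e-04), HSP90B1 by 0.30 ± 0.05 (adjusted p = 1.8e-04) and HYOU1 by 0.28 ± 0.05 (adjusted p = 6.3e-04). The lectin chaperone CANX (-0.03 ± 0.05, adjusted p = 0.75) and the translocon subunit SEC61B (0.07 ± 0.07, adjusted p = 0.58) were not called. HSPA5 had been at 9461 ± 4.48 counts at 0 h, 9102 ± 281 at 3 h and 6900.2 ± 310.4 at 8 h before reaching 9954 ± 213 at 12 h, so 8 h was the lowest point measured. Of the 20, 0 were called higher and 16 lower at 8 h against 3 h (median -0.30), against 13.1% and 13.4% of all genes. At 12 h against 0 h, 3 were higher and 5 lower (median -0.10), against 20.6% and 20% of all genes. In that comparison 40.5% of all genes were called in either direction.

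The ER stress response element, CCAAT and CCACG separated by 9 bases on either strand, is bound by NF-Y and ATF6 and is shown for the risen members that hold it. Windows were listed for 18 of the 20 genes and 6 of the 18 held the element, against 0.0916% of all 27305 genes and 0.158% of the 10119 tested in these cells. Of the 10 called members with a window, 3 did. They are HSPA5 (chr9:125241344-125241593 on the minus strand), CRELD2 (chr22:49918384-49918633 on the plus strand) and HSP90B1 (chr12:103930160-103930409 on the plus strand), with both outer boxes in capitals.
HSPA5: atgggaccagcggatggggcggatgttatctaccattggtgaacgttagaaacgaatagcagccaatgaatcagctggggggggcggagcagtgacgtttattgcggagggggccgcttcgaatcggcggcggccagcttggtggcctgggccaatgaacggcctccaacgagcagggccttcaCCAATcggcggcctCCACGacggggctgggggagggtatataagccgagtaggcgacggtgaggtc
CRELD2: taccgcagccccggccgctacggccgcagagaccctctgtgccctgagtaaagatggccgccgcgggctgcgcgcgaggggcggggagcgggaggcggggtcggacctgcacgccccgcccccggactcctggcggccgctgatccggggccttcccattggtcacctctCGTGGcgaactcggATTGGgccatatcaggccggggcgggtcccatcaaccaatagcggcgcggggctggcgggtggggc
HSP90B1: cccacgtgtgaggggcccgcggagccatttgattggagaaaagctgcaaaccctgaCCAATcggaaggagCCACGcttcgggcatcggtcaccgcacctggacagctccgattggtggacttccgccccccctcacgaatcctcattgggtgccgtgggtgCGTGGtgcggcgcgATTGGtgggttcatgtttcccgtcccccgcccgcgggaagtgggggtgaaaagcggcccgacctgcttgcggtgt
HSPA5 has 1 element, which starts 66 bases before the start, CRELD2 has 1 on the other strand, and HSP90B1 has 2, on opposite strands. Whether the element goes with the change was not tested.

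Other stress programmes moved in part. Of 18 tested ATF4 targets, the genes of amino-acid stress, 5 rose and 1 fell (median 0.20). At 8 h against 3 h, 0 of the 18 were called higher and 15 lower (median -0.62), against 13.1% and 13.4% of all genes. At 12 h against 0 h, 1 was higher and 15 lower (median -0.87), against 20.6% and 20% of all genes. The late rises thus started from lowered levels, and most targets were still below their level before coculture. The glutathione-degrading enzyme CHAC1 had 50.2, 41.8 and 35 counts at 12 h, against 6.34, 10.6 and 13.2 at 8 h (1.91 ± 0.44, adjusted p = 0.0072), a low level in every library. The stress factor DDIT3 had 101, 90.9 and 86.5 counts at 12 h, against 64.4, 59 and 60.0 at 8 h (0.59 ± 0.13, adjusted p = 0.0025) and SESN2, an inhibitor of mTORC1, had 251, 262 and 235 counts at 12 h, against 169, 163 and 166 at 8 h (0.58 ± 0.08, adjusted p = 1.1e-05). Both were higher in every 12 h library. ATF4 itself (0.11 ± 0.05, adjusted p = 0.21) and the targets ASNS (0.12 ± 0.18, adjusted p = 0.74) and TRIB3 (0.19 ± 0.08, adjusted p = 0.12) were not called, and PHGDH, the first enzyme of serine synthesis, fell (-0.19 ± 0.06, adjusted p = 0.033). CHAC1 was not called without both replicate 1 libraries (adjusted p = 0.11). PHGDH was not called without 12 h replicate 1 or 2 or 8 h replicate 2 or 3, both replicate 1 libraries or a filter on low values or with edgeR (adjusted p = 0.051 to 0.14).

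Heat-shock genes rose in part. Of 13 tested, 4 rose and none fell. BAG3, a co-chaperone of HSP70 in autophagy, had 159, 177 and 201 counts at 12 h, against 92.5, 90.9 and 106 at 8 h (0.87 ± 0.12, adjusted p = 4.7e-06), and the HSP70 genes HSPA1A (0.83 ± 0.08, adjusted p = 1.0e-08) and HSPA1B (0.82 ± 0.09, adjusted p = 1.4e-06) rose by similar amounts. These 2 genes are near-identical copies, so the split of reads between them is uncertain. DNAJB1, an HSP40 co-chaperone, rose less (0.34 ± 0.07, adjusted p = 0.0010). The HSP70 gene HSPA8 (-0.03 ± 0.06, adjusted p = 0.84), the HSP90 gene HSP90AA1 (0.06 ± 0.07, adjusted p = 0.68) and the co-chaperone HSPH1 (0.10 ± 0.05, adjusted p = 0.23) were not called. Without 8 h replicate 3 the count was 6.

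Of 13 tested clock genes 5 rose and none fell. PER1, a repressor of the clock, had 579, 634 and 576 counts at 12 h, against 382, 340.3 and 369 at 8 h (0.71 ± 0.08, adjusted p = 5.4e-08), groups that were well apart. The repressor BHLHE40 had 48.1, 27.2 and 26.8 counts at 12 h, against 9.97, 10.6 and 7.12 at 8 h (1.64 ± 0.26, adjusted p = 3.8e-05) and the nuclear receptor RORA had 59.6, 66.9 and 52.5 counts at 12 h, against 25.4, 29 and 26.4 at 8 h (1.09 ± 0.19, adjusted p = 1.8e-04). BHLHE41 (0.66 ± 0.18, adjusted p = 0.014) and CRY2 (0.27 ± 0.08, adjusted p = 0.022) were the remaining calls. CLOCK (-0.01 ± 0.11, adjusted p = 0.97), BMAL1 (0.24 ± 0.12, adjusted p = 0.19) and PER2 (0.22 ± 0.09, adjusted p = 0.11) were not called. The count became 3 without 8 h replicate 2 or 3. BHLHE41 was not called without 8 h replicate 2 or 3 (adjusted p = 0.050 to 0.081). CRY2 was not called without 12 h replicate 1 or 3 or 8 h replicate 2 or 3, both replicate 1 libraries or a filter on low values (adjusted p = 0.054 to 0.14). PER2 was called without 8 h replicate 1 (adjusted p = 0.027).

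Genes of the G1/S transition fell in 14 of 24 tested cases (CCND2 did not pass the filter) and none rose. Of the 24, 22 coefficients were negative and the median was -0.18. All changes were under 1.5-fold. E2F2 (ENSG00000007968, chromosome 1, 23506430 to 23531220), a transcription factor that drives entry into S phase, had 854, 939.6 and 856 counts at 12 h, against 1196, 1183 and 1141 at 8 h (-0.41 ± 0.06, adjusted p = 6.8e-06). E2F1 had 735, 724 and 733 counts at 12 h, against 926, 946 and 948 at 8 h (-0.36 ± 0.07, adjusted p = 2.3e-04) and cyclin E2, CCNE2, had 624, 711 and 630.3 counts at 12 h, against 841, 854 and 839 at 8 h (-0.37 ± 0.07, adjusted p = 2.1e-04). In each of these 3 genes the lowest 8 h library was above the highest 12 h library. RRM2, the regulated subunit of ribonucleotide reductase, had 3299, 3461 and 3310.2 counts at 12 h, against 4094, 4397 and 4301 at 8 h (-0.34 ± 0.05, adjusted p = 1.5e-05), with the groups again apart. Of the MCM2 to MCM7 subunits of the replicative helicase all 6 fell, with coefficients between -0.31 ± 0.06 (adjusted p = 5.7e-04) for MCM6 and -0.16 ± 0.05 (adjusted p = 0.024) for MCM7. MCM10 (-0.03 ± 0.06, adjusted p = 0.82), CDC45 (0.08 ± 0.07, adjusted p = 0.47), TYMS (-0.08 ± 0.06, adjusted p = 0.46) and CCNE1 (-0.12 ± 0.08, adjusted p = 0.35) were not called. Fewer members were called without some libraries: 8 without 12 h replicate 1 or 8 h replicate 2 and 9 without 12 h replicate 3 or 8 h replicate 3, and 10 without both replicate 1 libraries. MCM7 was not called without any 1 of the 6 libraries or both replicate 1 libraries (adjusted p = 0.052 to 0.10). MCM2 was not called without 12 h replicate 3 (adjusted p = 0.077), and MCM3 lost its call in the settings given below. MCM4, MCM5 and MCM6 were called under all 16 alternatives.

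Of the 27 G2/M genes 2 fell, a share of 7.41% against 6% of all genes called lower. KIF11, a mitotic kinesin, had 771, 779 and 825 counts at 12 h, against 920.0, 958 and 943 at 8 h (-0.25 ± 0.06, adjusted p = 0.0086), lower in every 12 h library, and BIRC5 (survivin) fell with it (-0.21 ± 0.06, adjusted p = 0.024). No other member was called, 23 of the 27 coefficients were negative and the median was -0.09. The count became 0 without both replicate 1 libraries, 1 without 12 h replicate 1 or 3 or 8 h replicate 2 or 3 and 4 without 8 h replicate 1. KIF11 was not called without both replicate 1 libraries (adjusted p = 0.060). BIRC5 was not called without 12 h replicate 1 or 3 or 8 h replicate 2 or 3 or both replicate 1 libraries (adjusted p = 0.055 to 0.19).

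**Figure D3:**
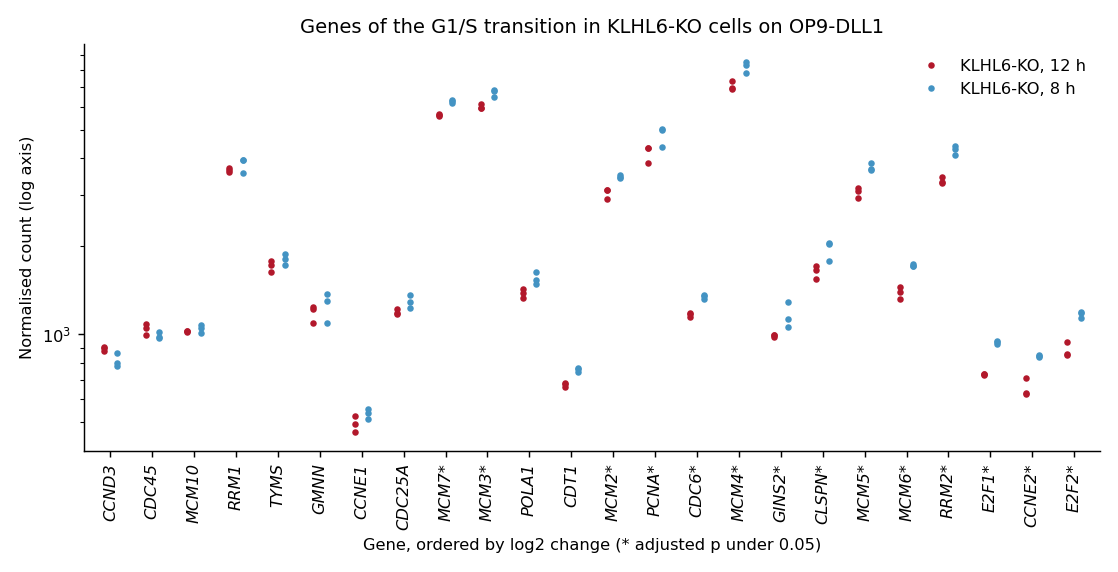
Normalised counts (log axis) of the 24 tested G1/S genes in KLHL6-KO cells, 1 point per library, with 12 h in red to the left of 8 h in blue, ordered from the largest to the smallest log2 change; an asterisk marks an adjusted p under 0.05. The 14 called genes lie lower at 12 h and sit towards the right, and CCND3 and CDC45 at the left have positive coefficients without a call.

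Windows of fallen G1/S genes are shown for the E2F site TTCCCGC, searched on both strands. Of 24 tested genes 21 had a window and 8 of the 21 held the site, against 6.66% of all 27305 genes and 10.97% of the 10119 tested in these cells. Among the 11 called members with a window, 4 held it. Only fallen genes whose window holds the site are printed, and whether matches go with the change was not tested. GINS2 (chr16:85688955-85689204 on the minus strand), PCNA (chr20:5126623-5126872 on the minus strand) and MCM3 (chr6:52284743-52284992 on the minus strand) are printed, with the site in capitals.
GINS2: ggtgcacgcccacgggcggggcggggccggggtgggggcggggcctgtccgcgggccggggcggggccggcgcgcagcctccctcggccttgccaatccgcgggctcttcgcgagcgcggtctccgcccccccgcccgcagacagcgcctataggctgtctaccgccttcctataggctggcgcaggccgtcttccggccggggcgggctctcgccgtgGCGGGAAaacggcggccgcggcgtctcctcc
PCNA: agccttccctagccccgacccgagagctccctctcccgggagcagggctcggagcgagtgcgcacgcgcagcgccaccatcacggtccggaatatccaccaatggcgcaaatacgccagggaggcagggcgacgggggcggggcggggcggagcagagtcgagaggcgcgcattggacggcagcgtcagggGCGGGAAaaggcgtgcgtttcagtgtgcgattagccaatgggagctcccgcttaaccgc
MCM3: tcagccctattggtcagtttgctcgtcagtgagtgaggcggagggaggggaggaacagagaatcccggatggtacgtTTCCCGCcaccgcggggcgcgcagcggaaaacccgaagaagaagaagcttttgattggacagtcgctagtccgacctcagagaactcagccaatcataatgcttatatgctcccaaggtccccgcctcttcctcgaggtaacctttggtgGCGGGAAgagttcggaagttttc
The site starts 31 bases before the start in GINS2, a subunit of the replicative helicase, and 59 bases before it in PCNA, the sliding clamp of DNA polymerase. MCM3 has 2 sites, 173 and 23 bases before it. GINS2 (-0.22 ± 0.06, adjusted p = 0.019), PCNA (-0.20 ± 0.06, adjusted p = 0.032) and MCM3 (-0.16 ± 0.05, adjusted p = 0.030) all fell. GINS2 was not called without 12 h replicate 1 or 3 or 8 h replicate 2 (adjusted p = 0.054 to 0.22). PCNA was not called without 12 h replicate 1 or 8 h replicate 2 or 3 or both replicate 1 libraries (adjusted p = 0.068 to 0.22). MCM3 was not called without 12 h replicate 1 or 3 or 8 h replicate 2 or 3 or both replicate 1 libraries (adjusted p = 0.074 to 0.12).

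MYC, a driver of growth and ribosome production, had 172, 211 and 179 counts at 12 h, against 322, 324 and 320.4 at 8 h. It was lower in every 12 h library (-0.78 ± 0.11, adjusted p = 8.2e-06). Over coculture its mean ran from 160.2 counts at 0 h through 432 at 3 h and 322 at 8 h to 188 at 12 h. The antagonist MXI1, which competes for the MYC partner MAX, had 114, 109.7 and 114 counts at 12 h, against 59.8, 62.8 and 55.9 at 8 h (0.90 ± 0.13, adjusted p = 1.4e-05), so every 12 h library was higher. MXD1, of the same family, rose too (0.45 ± 0.14, adjusted p = 0.033). Of the 30 genes of MYC and ribosome biogenesis these 2 rose and 5 fell, among them the processome subunits UTP20 (-0.38 ± 0.07, adjusted p = 6.9e-04) and WDR43 (-0.21 ± 0.06, adjusted p = 0.018), with a median of -0.09. The calls in both directions were 23.3% of this list, against 11.9% of all genes (5.87% called higher and 6% lower). The falls were 2 without 12 h replicate 1 or 3 or 8 h replicate 2 or 3. NCL (-0.12 ± 0.07, adjusted p = 0.24) and NPM1 (0.01 ± 0.09, adjusted p = 0.97), abundant nucleolar proteins, were not called. None of 30 ribosomal protein genes was called by limma, edgeR or DESeq2, and 0 had an unadjusted p under 0.05 (median -0.02). MXD1 was not called without 12 h replicate 1, 2 or 3 or 8 h replicate 2 or 3, both replicate 1 libraries or a filter on low values (adjusted p = 0.052 to 0.27). WDR43 was not called without 12 h replicate 1 or 3 or 8 h replicate 2 or 3 (adjusted p = 0.058 to 0.11).

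NOTCH targets moved in both directions. Of 17 genes on the list 11 passed the filter and HES4, HES5, HEY1, HEYL, DLL4 and GZMB did not. Of the 11, 4 rose and 1 fell, and the median was 0.25. SEMA7A (ENSG00000138623, chromosome 15, 74409289 to 74433958), a membrane semaphorin, had 1125, 952 and 1019.6 counts at 12 h, against 686, 546 and 667 at 8 h (0.71 ± 0.10, adjusted p = 8.2e-06), with every 12 h library higher. HES7, a repressor of the HES family, had 21.9, 17.8 and 16.5 counts at 12 h, against 8.16, 8.70 and 4.07 at 8 h (1.24 ± 0.34, adjusted p = 0.014). NRARP, a feedback inhibitor of the NOTCH complex, had 12.5, 17.8 and 21.6 counts at 12 h, against 5.44, 12.6 and 9.16 at 8 h (0.83 ± 0.27, adjusted p = 0.040), and its 2 groups overlapped by 1 library. The cyclin-dependent kinase inhibitor CDKN1B rose by 0.25 ± 0.07 (adjusted p = 0.011). DTX1, a ubiquitin ligase of the pathway, had 3528, 3802 and 3581 counts at 12 h, against 4551, 4676 and 4596 at 8 h (-0.34 ± 0.05, adjusted p = 8.1e-06), lower in every 12 h library. HES1, the best-known target, had 421, 472 and 468 counts at 12 h, against 369.8, 466 and 483 at 8 h in overlapping groups and was not called (0.05 ± 0.10, adjusted p = 0.81). HES7 was not called without 12 h replicate 1 or 8 h replicate 3 or both replicate 1 libraries (adjusted p = 0.066 to 0.10). NRARP was not called without 12 h replicate 2 or 3 or 8 h replicate 1 or 3, both replicate 1 libraries or a filter on low values or with edgeR, DESeq2 or the compared groups alone (adjusted p = 0.054 to 0.22). CDKN1B was not called without 12 h replicate 1 or 8 h replicate 1, both replicate 1 libraries or a filter on low values (adjusted p = 0.056 to 0.18).

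Several of these calls rested on single libraries. Without both replicate 1 libraries 1 target rose, SEMA7A, and DTX1 fell. The remaining members were not called: IL2RA at 0.53 ± 0.38 (adjusted p = 0.42), CDK5RAP3 at 0.26 ± 0.13 (adjusted p = 0.22), HES6 at -0.16 ± 0.11 (adjusted p = 0.39), HEY2 at -0.24 ± 0.18 (adjusted p = 0.46) and CR2 at -0.41 ± 0.22 (adjusted p = 0.23). CDK5RAP3 was called with the compared groups alone (adjusted p = 0.048).

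Of 24 tested genes of the NOTCH pathway itself, the fringe glycosyltransferase RFNG rose (0.40 ± 0.10, adjusted p = 0.010) and the gamma-secretase subunit NCSTN (-0.23 ± 0.08, adjusted p = 0.040) and the fucosyltransferase POFUT1 (-0.19 ± 0.06, adjusted p = 0.030) fell, with a median of 0.03. These calls are 12.5% of the list, close to the 11.9% called among all genes. NOTCH2, the receptor expressed by mature B cells, had 402, 306 and 287 counts at 12 h, against 317, 281 and 278 at 8 h, overlapping groups with no call (0.17 ± 0.18, adjusted p = 0.61). NOTCH1 (0.16 ± 0.13, adjusted p = 0.49) and RBPJ (-0.04 ± 0.07, adjusted p = 0.83) were not called. DLL1, the ligand that the stroma carries, had 19.8 ± 11.9 counts at 12 h and 23.6 ± 7.19 at 8 h and 0 in all libraries at 0 h. The RBPJ core TGGGAA, searched on both strands, was in 3 of the 10 listed promoter windows of tested targets, against 24.6% of all genes and 24.7% of the tested ones, and in none of the 4 windows of called targets. RFNG was not called without 12 h replicate 2 or 8 h replicate 3 (adjusted p = 0.058 to 0.075). NCSTN was not called without any 1 of the 6 libraries, both replicate 1 libraries or a filter on low values (adjusted p = 0.065 to 0.29). POFUT1 was not called without 12 h replicate 2 or 3 or 8 h replicate 1, 2 or 3 or a filter on low values (adjusted p = 0.052 to 0.15).

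Signalling and activation genes rose in part. Of 25 NF-kB genes 7 rose and 2 fell, with a median of 0.09. TRAF1, an adaptor of TNF receptors, had 1365, 1289.7 and 1373 counts at 12 h, against 1025, 844 and 897 at 8 h (0.55 ± 0.07, adjusted p = 4.8e-07). The inhibitor NFKBIE had 1289.6, 1242 and 1397 counts at 12 h, against 939, 924 and 993 at 8 h (0.46 ± 0.08, adjusted p = 3.1e-04), and every 12 h library was higher in both genes. The cytokine LTA (0.49 ± 0.10, adjusted p = 0.0012), the transcription factor IRF4 (0.32 ± 0.06, adjusted p = 8.1e-04), NFKB2 (0.28 ± 0.06, adjusted p = 0.0013) and the adhesion molecule ICAM1 (0.28 ± 0.06, adjusted p = 0.0017) also rose. NFKBIZ, an atypical nuclear member of the IkB family, had 1324, 1327 and 1296 counts at 12 h, against 1794, 1753 and 1776 at 8 h and fell (-0.43 ± 0.06, adjusted p = 2.1e-05). NFKB1 (-0.03 ± 0.07, adjusted p = 0.86), BIRC3 (0.07 ± 0.05, adjusted p = 0.44) and TNF (0.09 ± 0.08, adjusted p = 0.54) were not called. The count of falls was 1 without 12 h replicate 1 or 3 or 8 h replicate 2 or 3, both replicate 1 libraries or a filter on low values.

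Of 10 tested chemokines and cytokines 4 rose and none fell. CCL3 had 96.1, 80.5 and 134 counts at 12 h, against 48.9, 32.9 and 45.8 at 8 h (1.23 ± 0.27, adjusted p = 0.0017) and CCL4 had 36.6, 39.7 and 61.8 counts at 12 h, against 25.4, 17.4 and 10.2 at 8 h (1.33 ± 0.38, adjusted p = 0.019), both chemokines that activated B cells secrete, and neither gene's groups overlapped. Both have near-identical copies in the genome, so their counts are uncertain. EBI3, a cytokine subunit, rose at low counts (1.2 ± 0.38, adjusted p = 0.033), and TNFSF9, the ligand of 4-1BB, rose (0.39 ± 0.09, adjusted p = 0.0025). The count was 2 without 12 h replicate 3 or 8 h replicate 2 or 3 or both replicate 1 libraries or with DESeq2, a pseudocount of 0.5 or the stricter filter. CCL4 was not called without 12 h replicate 3 or 8 h replicate 2 or 3 or with a pseudocount of 0.5 (adjusted p = 0.055 to 0.14). EBI3 was not called without 12 h replicate 1 or 3 or 8 h replicate 1, 2 or 3, both replicate 1 libraries or a filter on low values or with a pseudocount of 0.5 (adjusted p = 0.053 to 0.26). TNFSF9 was not called without both replicate 1 libraries (adjusted p = 0.10).

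Cytokine receptors and STAT factors gave 7 rises and 2 falls among 19 tested genes. STAT5A had 154, 146 and 202 counts at 12 h, against 96.1, 82.2 and 81.4 at 8 h (0.92 ± 0.15, adjusted p = 4.8e-05) and STAT3 had 1334, 1311 and 1199 counts at 12 h, against 939, 900.1 and 917 at 8 h (0.48 ± 0.06, adjusted p = 3.7e-06). For both transducers all 12 h libraries were higher. Receptor chains IL2RB (0.94 ± 0.23, adjusted p = 0.0059) and IL2RG (0.43 ± 0.13, adjusted p = 0.023) and the kinases JAK3 (0.53 ± 0.15, adjusted p = 0.014), JAK2 (0.35 ± 0.11, adjusted p = 0.045) and PIM2 (0.23 ± 0.06, adjusted p = 0.013) completed the rises. IL10RA, a subunit of the interleukin-10 receptor, had 1741, 1708 and 1779.7 counts at 12 h, against 2396, 2609 and 2476 at 8 h and fell (-0.52 ± 0.05, adjusted p = 1.9e-08), as did the kinase PIM1 (-0.25 ± 0.06, adjusted p = 0.0043). STAT6 (0.03 ± 0.06, adjusted p = 0.82) was not called. The rises numbered 4 without 12 h replicate 1 or 8 h replicate 2 or 3, and 2 without both replicate 1 libraries. IL2RB was not called without 8 h replicate 3 or both replicate 1 libraries (adjusted p = 0.056 to 0.062). IL2RG was not called without 12 h replicate 1 or 8 h replicate 1, 2 or 3, both replicate 1 libraries or a filter on low values (adjusted p = 0.052 to 0.22). JAK3 was not called without 12 h replicate 1 or 2 or 8 h replicate 2 or both replicate 1 libraries (adjusted p = 0.070 to 0.13). JAK2 was not called without 12 h replicate 1, 2 or 3 or 8 h replicate 2 or 3, both replicate 1 libraries or a filter on low values (adjusted p = 0.058 to 0.21). PIM2 was not called without 12 h replicate 3 or 8 h replicate 1 or both replicate 1 libraries (adjusted p = 0.069 to 0.082).

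Costimulatory genes rose in 5 of 14 cases, led by CD70, the ligand of CD27, with 100.3, 123 and 141 counts at 12 h, against 77, 79.3 and 64.1 at 8 h (0.70 ± 0.14, adjusted p = 0.0010). ICOSLG, the ligand of ICOS, had 152, 137 and 141 counts at 12 h, against 105, 112 and 90.5 at 8 h (0.48 ± 0.10, adjusted p = 0.0017), and the activation marker CD69 (0.46 ± 0.13, adjusted p = 0.018), the receptor CD40 (0.20 ± 0.07, adjusted p = 0.041) and the adhesion receptor SLAMF7 (0.22 ± 0.07, adjusted p = 0.034) rose. The count was 2 without 12 h replicate 1 or 8 h replicate 2 and 3 without 12 h replicate 3 or 8 h replicate 3, both replicate 1 libraries or a filter on low values. CD80 (-0.03 ± 0.10, adjusted p = 0.90) and CD86 (-0.05 ± 0.08, adjusted p = 0.75) were not called. CD69 was not called without 12 h replicate 1 or 2 or 8 h replicate 2 (adjusted p = 0.057 to 0.13). CD40 was not called without 12 h replicate 1 or 3 or 8 h replicate 1, 2 or 3, both replicate 1 libraries or a filter on low values (adjusted p = 0.065 to 0.20). SLAMF7 was not called without 12 h replicate 1 or 3 or 8 h replicate 2 or 3, both replicate 1 libraries or a filter on low values (adjusted p = 0.080 to 0.15).

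Immediate-early genes showed few calls. In the EGR and NR4A list 2 of 11 rose: NAB2, a co-repressor of EGR proteins, had 599.9, 606 and 614 counts at 12 h, against 441, 400.3 and 421 at 8 h (0.53 ± 0.09, adjusted p = 7.1e-05), and EGR2 rose with less margin (0.45 ± 0.14, adjusted p = 0.036). The AP-1 list had 2 rises among 12, MAFF (0.65 ± 0.18, adjusted p = 0.014) and JUNB (0.20 ± 0.06, adjusted p = 0.038), and its median was 0.52. The calls were 18.2% of the EGR and NR4A list and 16.7% of the AP-1 list, against 11.9% of all genes. FOS (0.48 ± 0.23, adjusted p = 0.20), FOSL1 (0.86 ± 0.32, adjusted p = 0.074) and ATF3 (0.65 ± 0.24, adjusted p = 0.074), all at low counts, were not called in the main limma fit. The EGR and NR4A count was 1 without 12 h replicate 1 or 3 or 8 h replicate 2 or 3, both replicate 1 libraries or a filter on low values, and the AP-1 count 0 without 8 h replicate 2 and 1 without 12 h replicate 1 or 2 or 8 h replicate 1 or a filter on low values. Feedback genes of MAP kinase signalling rose in 3 of 8 cases, with SPRY1 at 72.1, 57.5 and 57.7 counts at 12 h, against 35.3, 30.0 and 35.6 at 8 h (0.85 ± 0.20, adjusted p = 0.0032), DUSP2 (0.25 ± 0.08, adjusted p = 0.047) and DUSP22 (0.24 ± 0.06, adjusted p = 0.0094). Their count was 1 without 12 h replicate 1 or both replicate 1 libraries. EGR2 was not called without 12 h replicate 1 or 3 or 8 h replicate 2 or 3, both replicate 1 libraries or a filter on low values (adjusted p = 0.056 to 0.17). MAFF was not called without 12 h replicate 1 or 8 h replicate 2 (adjusted p = 0.056 to 0.085). JUNB was not called without 12 h replicate 1, 2 or 3 or 8 h replicate 1 or 2, both replicate 1 libraries or a filter on low values (adjusted p = 0.068 to 0.31). DUSP2 was not called without any 1 of the 6 libraries, both replicate 1 libraries or a filter on low values or with TMM scaling (adjusted p = 0.051 to 0.19). DUSP22 was not called without 12 h replicate 1 or both replicate 1 libraries (adjusted p = 0.070 to 0.12). FOSL1 was called with edgeR, a pseudocount of 8 or the compared groups alone (adjusted p = 0.024 to 0.029). ATF3 was called without 12 h replicate 1 or both replicate 1 libraries (adjusted p = 0.024 to 0.032).

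Germinal-centre genes fell in 6 of 14 tested cases and rose in 2, with a median of -0.13. CD38, a surface NAD hydrolase of germinal-centre and plasma cells, had 974, 931 and 1059 counts at 12 h, against 1316, 1263 and 1376 at 8 h (-0.42 ± 0.06, adjusted p = 2.9e-05). SERPINA9, a serine protease inhibitor of germinal-centre cells, had 366, 432 and 416 counts at 12 h, against 507, 549 and 549 at 8 h (-0.40 ± 0.08, adjusted p = 9.2e-04) and BCL7A, a subunit of chromatin remodelling complexes, had 1429.7, 1650.3 and 1473 counts at 12 h, against 1804, 2004 and 1938 at 8 h (-0.34 ± 0.06, adjusted p = 9.1e-05). In these 3 genes all 12 h libraries were lower. The repressor BCL6 fell (-0.30 ± 0.07, adjusted p = 0.0020), with 1613 ± 107 counts at 12 h and 1982 ± 127 at 8 h and 2564 ± 62.8 at 0 h. P2RY8, a receptor that confines cells to the germinal centre, fell as well (-0.27 ± 0.06, adjusted p = 0.0016), and its mean ran from 2242 counts at 0 h to 2054, 1042 and 865 at 3, 8 and 12 h. ELL3 was the sixth fall (-0.69 ± 0.20, adjusted p = 0.019). RGS13 (0.22 ± 0.06, adjusted p = 0.0098) and LMO2 (0.33 ± 0.10, adjusted p = 0.030) rose, and leaving out 1 library gave 0 to 2 rises: 0 without 12 h replicate 3 or both replicate 1 libraries and 1 without 12 h replicate 1 or 8 h replicate 1, 2 or 3 or a filter on low values. ELL3 was not called without 12 h replicate 3 or 8 h replicate 1 or 2 or both replicate 1 libraries or with the compared groups alone (adjusted p = 0.065 to 0.23). RGS13 was not called without 12 h replicate 3 or 8 h replicate 3 or both replicate 1 libraries (adjusted p = 0.050 to 0.060). LMO2 was not called without 12 h replicate 1 or 3 or 8 h replicate 1 or 2, both replicate 1 libraries or a filter on low values (adjusted p = 0.071 to 0.14).

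B-cell identity factors went both ways, 3 higher and 5 lower among 17. CIITA, the master regulator of MHC class II genes, had 7063, 6207 and 6726 counts at 12 h, against 4902, 3632 and 3936 at 8 h (0.69 ± 0.12, adjusted p = 5.1e-04), higher in every 12 h library. ETS1 had 3161, 3073 and 2803 counts at 12 h, against 3838, 4015 and 3697 at 8 h (-0.35 ± 0.07, adjusted p = 4.6e-04), lower in every 12 h library. POU2AF1 (-0.27 ± 0.07, adjusted p = 0.0056), FOXO1 (-0.28 ± 0.08, adjusted p = 0.023), IKZF3 (-0.19 ± 0.06, adjusted p = 0.019) and TCF4 (-0.18 ± 0.05, adjusted p = 0.0083) fell, and POU2F2 (0.29 ± 0.07, adjusted p = 0.0048) and BACH2 (0.33 ± 0.11, adjusted p = 0.035) rose. PAX5 (-0.15 ± 0.07, adjusted p = 0.19) and EBF1 (0.01 ± 0.09, adjusted p = 0.98) were not called. PAX5 was called lower with a replicate block (adjusted p = 0.033). The falls numbered 1 without 8 h replicate 2, 2 without 12 h replicate 3 and 3 without 8 h replicate 1 or both replicate 1 libraries. POU2AF1 was not called without 8 h replicate 2 (adjusted p = 0.067). FOXO1 was not called without 12 h replicate 1 or 3 or 8 h replicate 1 or 2, both replicate 1 libraries or a filter on low values (adjusted p = 0.050 to 0.18). IKZF3 was not called without 12 h replicate 3 or 8 h replicate 1 or 2 or both replicate 1 libraries (adjusted p = 0.065 to 0.13). TCF4 was not called without 12 h replicate 3 or 8 h replicate 2 (adjusted p = 0.057 to 0.074), nor was POU2F2 without both replicate 1 libraries (adjusted p = 0.097). BACH2 was not called without 12 h replicate 1, 2 or 3 or 8 h replicate 2 or 3, both replicate 1 libraries or a filter on low values or with edgeR or DESeq2 (adjusted p = 0.058 to 0.24).

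In the B-cell receptor list 2 of 23 rose and 3 fell, with a median of 0.01. The calls were 21.7% of the list, against 11.9% of all genes (5.87% called higher and 6% lower). PTPN6, the inhibitory phosphatase SHP-1, had 1393, 1440.2 and 1420.3 counts at 12 h, against 998, 897 and 955 at 8 h (0.58 ± 0.07, adjusted p = 2.4e-07), higher in all 12 h libraries. The signalling chain CD79B had 1441, 1649 and 1490.3 counts at 12 h, against 1812, 2002 and 1929.8 at 8 h and fell (-0.33 ± 0.07, adjusted p = 0.0029), with DAPP1 (-0.30 ± 0.07, adjusted p = 0.0044) and SYK (-0.22 ± 0.06, adjusted p = 0.0076). CD79A (-0.14 ± 0.06, adjusted p = 0.17), the partner of CD79B, was not called, except with a replicate block (adjusted p = 0.0496). The rises were 1 without 8 h replicate 2. DAPP1 was not called without both replicate 1 libraries (adjusted p = 0.082), nor was SYK without 12 h replicate 3 (adjusted p = 0.064).

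Of 15 plasma-cell genes 4 rose and 2 fell. TNFRSF17, the survival receptor BCMA, had 630.2, 732 and 709 counts at 12 h, against 935, 1251 and 1196 at 8 h (-0.70 ± 0.09, adjusted p = 1.2e-05), lower in every 12 h library. Its mean had been 2129 counts at 0 h. The ER factor MZB1 (0.25 ± 0.06, adjusted p = 0.0085), the unfolded-protein factor XBP1 (0.17 ± 0.05, adjusted p = 0.039) and SDC1 (1.10 ± 0.33, adjusted p = 0.024) rose beside IRF4, CD38 fell as given above, and PRDM1 (0.16 ± 0.15, adjusted p = 0.56) was not called. The rises were 2 without 12 h replicate 2 or 3 or 8 h replicate 1 or 2. XBP1 was not called without 12 h replicate 2 or 3 or 8 h replicate 1, 2 or 3 or a filter on low values (adjusted p = 0.062 to 0.17). SDC1 was not called without 12 h replicate 1, 2 or 3 or 8 h replicate 1 or 2 or both replicate 1 libraries (adjusted p = 0.053 to 0.13).

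Antigen-presentation genes rose in part. Among 14 MHC class II genes 4 rose and 1 fell: beside CIITA and HLA-DRB5 (0.18 ± 0.06, adjusted p = 0.044), HLA-DQB1 had 1876, 1797 and 2016 counts at 12 h, against 1438, 1488 and 1533 at 8 h (0.35 ± 0.07, adjusted p = 4.0e-04) and HLA-DRB1 rose by 0.21 ± 0.06 (adjusted p = 0.010), and RFX5, a factor that binds class II promoters, fell (-0.25 ± 0.05, adjusted p = 0.0017). Among 14 class I genes 5 rose and 1 fell, the immunoproteasome subunit PSMB10 (-0.31 ± 0.09, adjusted p = 0.021), with HLA-F at 209, 187 and 187 counts at 12 h, against 137, 115 and 138 at 8 h (0.58 ± 0.11, adjusted p = 7.7e-04) and HLA-C at 5040.4, 5231 and 5107 counts at 12 h, against 4168, 4325 and 4239.9 at 8 h (0.27 ± 0.06, adjusted p = 0.0020). HLA genes are similar to each other and vary between people, so counts of single HLA genes are uncertain. The class II rises were 2 without 8 h replicate 1 or both replicate 1 libraries, and the class I rises 2 without 12 h replicate 1 or 8 h replicate 1 or both replicate 1 libraries and 3 without 12 h replicate 2 or 3 or 8 h replicate 2 or 3 or a filter on low values. Of 17 tested interferon-response genes OAS3 alone was called, and it fell (-0.43 ± 0.11, adjusted p = 0.0079), while IFI35 was not called (-0.38 ± 0.16, adjusted p = 0.13). This is 5.88% of the interferon list, against 11.9% of all genes called. The falls were 0 without 12 h replicate 3 and 2 without 12 h replicate 1. HLA-DRB5 was not called without 12 h replicate 1 or 3 or 8 h replicate 1 or 2, both replicate 1 libraries or a filter on low values or with edgeR or TMM scaling (adjusted p = 0.051 to 0.46). HLA-DRB1 was not called without 8 h replicate 1 or both replicate 1 libraries (adjusted p = 0.073 to 0.19). PSMB10 was not called without 12 h replicate 2 or 3 or 8 h replicate 2 or a filter on low values or with DESeq2 (adjusted p = 0.062 to 0.14). OAS3 was not called without 12 h replicate 3 or both replicate 1 libraries (adjusted p = 0.059 to 0.062). IFI35 was called without 12 h replicate 1 or both replicate 1 libraries (adjusted p = 0.020 to 0.027).

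Migration and adhesion held some of the largest single changes. RGS1 (ENSG00000090104, chromosome 1, 192575727 to 192580031), which dampens chemokine-receptor signalling, had 117, 83.6 and 77.2 counts at 12 h, against 29.9, 19.3 and 28.5 at 8 h. Every 12 h library was more than 2-fold above every 8 h library (1.76 ± 0.17, adjusted p = 5.3e-09). Its relative RGS2 had 664, 659 and 732 counts at 12 h, against 501, 452 and 466 at 8 h (0.53 ± 0.07, adjusted p = 2.5e-06). The chemokine receptors CXCR5 (-0.08 ± 0.06, adjusted p = 0.44) and CXCR4 (-0.05 ± 0.06, adjusted p = 0.69) were not called, and CXCR3 fell at low counts (-1.09 ± 0.31, adjusted p = 0.017). ITGAL, the alpha chain of the integrin LFA-1, had 1878, 1849.9 and 1714 counts at 12 h, against 2745, 2764 and 2657 at 8 h (-0.59 ± 0.06, adjusted p = 1.3e-08), lower in every 12 h library, and ITGB7 fell (-0.27 ± 0.06, adjusted p = 0.0038). SPN (CD43), a sialomucin, had 163, 152 and 176 counts at 12 h, against 102, 113 and 86.5 at 8 h (0.70 ± 0.11, adjusted p = 2.3e-05), higher in every 12 h library. CXCR3 was not called without 12 h replicate 1 or 2 or 8 h replicate 2 or 3 (adjusted p = 0.050 to 0.14).

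Further large rises outside the lists were those of IL4I1, LRRC32, IGSF3, TNFRSF10D and UAP1L1. IL4I1, a secreted amino-acid oxidase, had 687, 654 and 557 counts at 12 h, against 243, 238 and 193 at 8 h (1.49 ± 0.13, adjusted p = 1.0e-07). LRRC32 (GARP), which anchors latent TGF-beta, had 262, 206 and 205 counts at 12 h, against 93.4, 61.9 and 76.3 at 8 h (1.53 ± 0.19, adjusted p = 2.4e-05). TNFRSF10D, a decoy receptor of TRAIL, had 90.9, 67.9 and 82.4 counts at 12 h, against 43.5, 25.1 and 30.5 at 8 h (1.26 ± 0.20, adjusted p = 3.5e-05). UAP1L1 had 239, 199 and 199 counts at 12 h, against 98.8, 95.7 and 78.3 at 8 h (1.21 ± 0.17, adjusted p = 2.3e-05) and IGSF3 had 61.7, 55.4 and 51.5 counts at 12 h, against 28.1, 17.4 and 15.3 at 8 h (1.43 ± 0.23, adjusted p = 6.6e-05). In all 5 genes the 12 h libraries were higher without overlap, which the rule for naming them required.

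Of the 12 largest falls by the naming rule, 9 genes had a higher mean at both 0 h and 3 h than at 8 h. TCL6 (ENSG00000187621, chromosome 14, 95650498 to 95679833), a non-coding transcript beside the TCL1 genes, had 25.1, 34.5 and 14.4 counts at 12 h, against 69.8, 75.4 and 91.6 at 8 h (-1.67 ± 0.20, adjusted p = 1.8e-06). TRIM31, a ubiquitin ligase, had 53.3, 43.9 and 44.3 counts at 12 h, against 99.7, 118 and 132 at 8 h (-1.27 ± 0.14, adjusted p = 1.3e-07), after 553 ± 24.5 at 0 h and 230.0 ± 30.2 at 3 h. NAV2, a cytoskeletal protein known from neurons, had 81.5, 83.6 and 74.2 counts at 12 h, against 191, 186 and 176 at 8 h (-1.19 ± 0.10, adjusted p = 5.2e-10). VPREB3, which binds immunoglobulin chains in the ER of B cells, had 83.6, 87.8 and 78.3 counts at 12 h, against 135, 158 and 151 at 8 h (-0.81 ± 0.10, adjusted p = 1.4e-06), after 617 ± 41.9 at 0 h and 411 ± 24.8 at 3 h. CEACAM1, an inhibitory adhesion receptor, had 24, 31.4 and 26.8 counts at 12 h, against 46.2, 57 and 60.0 at 8 h (-0.94 ± 0.16, adjusted p = 9.1e-05), and CHDH, a mitochondrial choline dehydrogenase, had 339.7, 315 and 311 counts at 12 h, against 547, 576 and 538 at 8 h (-0.78 ± 0.07, adjusted p = 4.9e-09). LINC01991, a non-coding RNA, had 81.5, 98.2 and 95.8 counts at 12 h, against 178, 177 and 164 at 8 h (-0.90 ± 0.09, adjusted p = 1.9e-08), and HEPACAM2 (-0.85 ± 0.11, adjusted p = 2.3e-06), MYL2 (-0.85 ± 0.17, adjusted p = 6.1e-04) and DHRS2 (-0.89 ± 0.22, adjusted p = 0.0053) followed. DHRS2 differed in its course, with 34.7 ± 7.13 counts at 0 h and 58.5 ± 5.95 at 8 h. MALINC1 (-0.74 ± 0.16, adjusted p = 0.0020) is annotated antisense to another gene, and whether the counting used strand is not given in the sources used here, so its value is uncertain.

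Other lists held few or no calls. None of 23 nuclear genes of oxidative phosphorylation (median 0.01) and none of 15 genes of the oxidative-stress response (median -0.04) was called. None of 13 genes of the mitochondrial genome was called in the fit over all 24 libraries, where 12 coefficients were positive and the median was 0.28. MT-CO1 (0.46 ± 0.26, adjusted p = 0.29), MT-ND4L (0.45 ± 0.27, adjusted p = 0.33) and the cystine transporter SLC7A11 (0.25 ± 0.14, adjusted p = 0.27), of the oxidative-stress list, were among those not called. MT-ND5, which had the smallest p of the list, had 197447, 165191 and 136010.0 counts at 12 h, against 125311, 110085 and 113768 at 8 h (0.50 ± 0.24, adjusted p = 0.22), with 12 h replicate 1 highest, as in the mitochondrial share of reads. At an unadjusted p under 0.05, 0 nuclear, 4 oxidative-stress and 0 mitochondrial-genome genes passed. Neither edgeR nor DESeq2 called a member of these 3 lists. In a fit of the compared groups alone 3 mitochondrial-genome genes and 1 oxidative-stress gene were called higher. MT-CO1 was called with the compared groups alone (adjusted p = 0.017), and so was MT-ND4L with the compared groups alone (adjusted p = 0.045). SLC7A11 was called with the compared groups alone (adjusted p = 0.046), and so was MT-ND5 with the compared groups alone (adjusted p = 0.0022). A replicate block called SLC7A11 higher (adjusted p = 0.044) and TXNRD1, also of the oxidative-stress list, lower (adjusted p = 0.022).

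Cholesterol and fatty-acid synthesis held few calls. Of 22 cholesterol genes 3 rose, with MVD at 2186, 2046 and 2066 counts at 12 h, against 1684, 1535 and 1585 at 8 h (0.39 ± 0.07, adjusted p = 1.1e-04), and 1 fell, 0 without 12 h replicate 2 or 3 or 8 h replicate 1 or 2 or both replicate 1 libraries and 2 with the compared groups alone. Of 14 fatty-acid genes 2 rose, FADS1 (0.53 ± 0.09, adjusted p = 1.4e-04) and SREBF1 (0.22 ± 0.07, adjusted p = 0.032). The calls were 18.2% of the cholesterol list and 14.3% of the fatty-acid list. Of all genes 11.9% were called in either direction and 5.87% higher. SREBF1 was not called without 12 h replicate 1 or 3 or 8 h replicate 2 or 3, both replicate 1 libraries or a filter on low values (adjusted p = 0.057 to 0.18).

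Stress, survival and decay lists gave scattered calls. Of 20 p53 targets 4 rose, SESN2, PLK3 (0.40 ± 0.08, adjusted p = 9.8e-04), GADD45B (0.39 ± 0.08, adjusted p = 0.0012) and CDKN1A (0.33 ± 0.09, adjusted p = 0.0089), and FAS (-0.37 ± 0.10, adjusted p = 0.0099) and MDM2 (-0.22 ± 0.06, adjusted p = 0.021) fell. The p53 falls were 0 without 8 h replicate 2 and 1 without 12 h replicate 1 or 2 or 8 h replicate 1 or both replicate 1 libraries. In the BCL2 family BIK (0.37 ± 0.10, adjusted p = 0.017) and BCL2 (0.37 ± 0.11, adjusted p = 0.033) rose among 15, and the count was 0 without 12 h replicate 2 or 8 h replicate 2 or both replicate 1 libraries and 1 without 8 h replicate 1 or a filter on low values. The calls were 13.3% of this list, against 11.9% of all genes called in either direction and 5.87% called higher. Among 14 genes of RNA decay 2 rose, 0 without both replicate 1 libraries and 1 without any 1 of the 6 libraries or a filter on low values, and 1 fell, 0 without 12 h replicate 3 or 8 h replicate 1 or both replicate 1 libraries and 3 with the compared groups alone. Of 12 genes of cullin-3 ligases KEAP1 (-0.20 ± 0.06, adjusted p = 0.030) and KLHL9 (-0.29 ± 0.10, adjusted p = 0.044) fell, and the falls were 0 without 12 h replicate 1 or 3 or 8 h replicate 3, both replicate 1 libraries or a filter on low values and 1 without 12 h replicate 2 or 8 h replicate 1 or 2 or with DESeq2. The calls were 30% of the p53 list, 21.4% of the RNA-decay list and 16.7% of the cullin-3 list, against 11.9% of all genes. Among all genes 5.87% were called higher and 6% lower. CDKN1A was not called without 12 h replicate 2 or 8 h replicate 2 (adjusted p = 0.068 in each), nor was FAS without 12 h replicate 2 or 8 h replicate 2 (adjusted p = 0.056 to 0.057). MDM2 was not called without 12 h replicate 1 or 8 h replicate 1 or 2 or both replicate 1 libraries (adjusted p = 0.052 to 0.18). BIK was not called without 12 h replicate 2 or 8 h replicate 1 or 2 or both replicate 1 libraries (adjusted p = 0.053 to 0.14). BCL2 was not called without 12 h replicate 1 or 2 or 8 h replicate 2 or 3, both replicate 1 libraries or a filter on low values (adjusted p = 0.076 to 0.15). KEAP1 was not called without 12 h replicate 1 or 3 or 8 h replicate 2 or 3, both replicate 1 libraries or a filter on low values (adjusted p = 0.072 to 0.22). KLHL9 was not called without 12 h replicate 1, 2 or 3 or 8 h replicate 1 or 3, both replicate 1 libraries or a filter on low values or with DESeq2 (adjusted p = 0.066 to 0.22).

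The same step was measured in WT cells, which share no library with it. Both steps were tested with a common estimate of the spread per gene, so their calls are not fully independent. In WT cells 3771 of 15032 genes were called (25.1%), 1953 higher (13%) and 1818 lower (12.1%). Of the 883 genes that rose in KLHL6-KO cells 664 also rose in WT cells, 75.2% of the KLHL6-KO list and 34.0% of the WT list. Of the 902 that fell, 667 also fell in WT cells, 73.9% of the KLHL6-KO list and 36.7% of the WT list. Among genes called in KLHL6-KO cells, 1 that rose and 0 that fell were called in the opposite direction in WT cells. The 1 gene was JUNB, with 0.20 ± 0.06 (adjusted p = 0.038) in KLHL6-KO cells and -0.22 ± 0.06 (adjusted p = 0.0093) in WT cells. Across the 15032 genes the changes had a Pearson r of 0.61 and a Spearman rho of 0.60, given as a description, since genes are not independent. Without WT 12 h replicate 1, whose mitochondrial share of reads was 23.2%, the WT count was 2470.

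**Figure D4:**
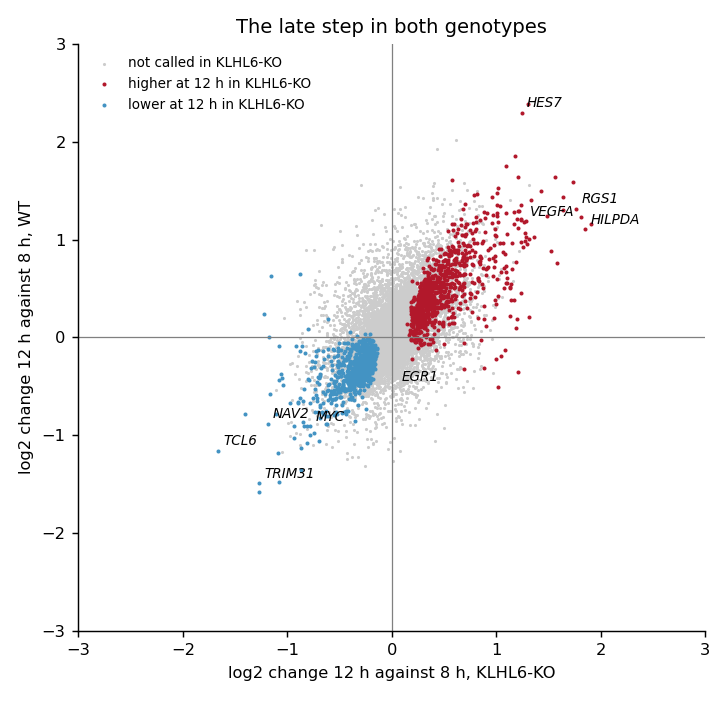
Each point is 1 of 15032 genes, placed by its log2 change between 12 h and 8 h in KLHL6-KO cells (horizontal) and in WT cells (vertical), 3 libraries against 3 in each. Genes called higher or lower in KLHL6-KO cells are red or blue, and the Pearson r over all genes is 0.61; EGR1 is at 0.04 in KLHL6-KO cells and -0.51 in WT cells.

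The lead lists had these counts in both genotypes. Of the hypoxia and glycolysis genes 17 rose in KLHL6-KO cells and 13 in WT cells, with medians of 0.39 in KLHL6-KO cells and 0.21 in WT cells. Of the ER chaperones 11 rose in KLHL6-KO cells (median 0.27) and 13 in WT cells (median 0.29). Of the G1/S genes 14 fell in KLHL6-KO cells (median -0.18) and 16 in WT cells (median -0.22). HILPDA rose by 1.85 ± 0.27 (adjusted p = 2.5e-04) in KLHL6-KO cells and by 1.11 ± 0.27 (adjusted p = 0.0067) in WT cells, and its level at 8 h was 284 ± 4.51 counts in KLHL6-KO cells and 617 ± 237 in WT cells. HES7 rose by 1.24 ± 0.34 (adjusted p = 0.014) in KLHL6-KO cells and by 2.30 ± 0.34 (adjusted p = 6.4e-06) in WT cells, with 18.7 ± 2.86 counts in KLHL6-KO and 30.1 ± 0.287 in WT cells at 12 h. The difference between these changes was 0.74 ± 0.38 (adjusted p = 0.70) for HILPDA and -1.05 ± 0.48 (adjusted p = 0.62) for HES7, so neither was called.

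The difference between genotypes in the late step, KLHL6-KO minus WT, was called by limma for 1 gene of 15032 (0.00665%), and 1137 genes had an unadjusted p under 0.05 (7.56%). DESeq2 called 4 and edgeR 1. The gene was EGR1 (ENSG00000120738, chromosome 5, 138465490 to 138469315), an immediate-early transcription factor. KLHL6-KO cells had 1079.6, 1006 and 1034 counts at 12 h, against 1049, 972 and 1009 at 8 h, overlapping groups with a change of 0.04 ± 0.06 (adjusted p = 0.74). WT cells had 786, 872 and 768 counts at 12 h, against 1146, 1175 and 1122 at 8 h, all 12 h libraries lower, with a change of -0.51 ± 0.06 (adjusted p = 3.9e-07). The difference was 0.55 ± 0.09 (adjusted p = 0.0082). It was not called without KLHL6-KO 8 h replicate 2 (adjusted p = 0.074), without WT 12 h replicate 3 (0.075) or without both KLHL6-KO replicate 1 libraries (0.075).

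**Figure D5:**
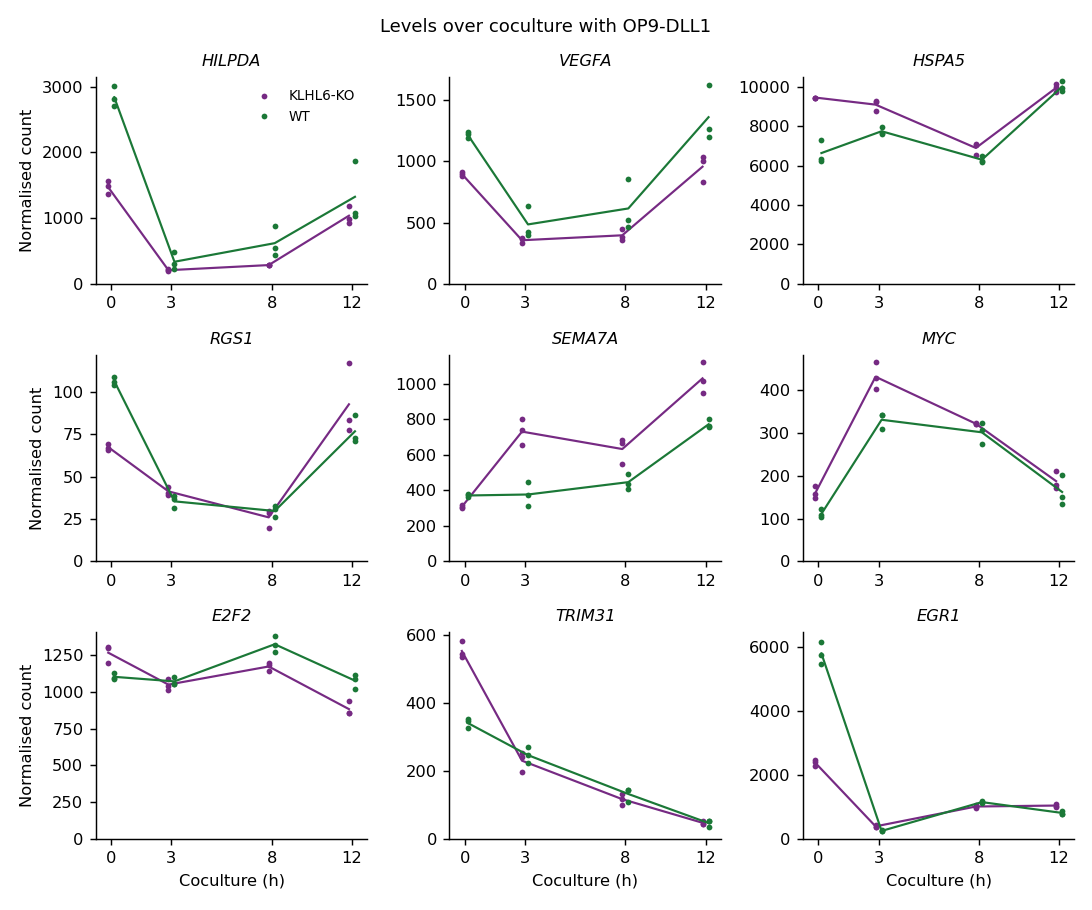
Normalised counts (linear axes from 0) of 9 genes over 0, 3, 8 and 12 h on OP9-DLL1, in KLHL6-KO cells (purple, drawn slightly to the left) and WT cells (green); each point is a library and lines join the means of 3. From 8 h to 12 h HILPDA, VEGFA, HSPA5, RGS1 and SEMA7A climb in both genotypes, MYC, E2F2 and TRIM31 decline in both, and EGR1 stays near 1040.0 counts in KLHL6-KO cells and declines to 809 in WT cells.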

How the data were processed

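Poly(A) RNA of U2932 cells cocultured with OP9-DLL1 was sequenced from a directional kit, per the labels' protocols. STAR, SAMtools, DESeq2 and GRCh38 appear in the submitters' processing notes without versions or roles. For the gene counter, its annotation and its strand setting, nothing is given in the sources used here. The authors deposited 1 signal value per gene and library, which proved to be counts divided by 1 step per library: dividing by the step gave whole numbers within 0.02 steps for 100% of values, and these recovered reads give the depths. All 60558 identifiers were looked up in GENCODE 29 names, and 60537 had a symbol. Xenograft libraries were not used.

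Values were tested as log2(value + 2) with limma 3.58.1 in R 4.3.3 (trend and robust options, 1 coefficient per group over 24 coculture libraries), after keeping 15032 genes with at least 10 counts in at least 3 libraries. Fold changes are on that scale and understate the change of low genes. The adjusted p is Benjamini-Hochberg over all genes kept, and the call threshold was 0.05. The script was tested on simulated data. The genotype difference is the KLHL6-KO change minus the WT change in the same fit.

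The cell groups, the 42 gene lists and the rules were chosen with earlier results of these data known. Genes were named by rule: KLHL6, NOTCH2 and each NOTCH target, then 12 rises and 12 falls of greatest size (called, at least 50 counts in 1 group, no overlap), and up to 4 called members per list by smallest p. Further members of the lists were named as examples after their values were seen. Some genes that the rule names are not reported here. Alternatives were other pseudocounts (0.5 and 8), no filter, a stricter filter of 50, TMM scaling, edgeR 4.0.16, DESeq2 1.42.0, the compared groups alone, a replicate block and leaving out each library. WT 3 h replicate 3 was left out of the fits on recovered reads, because a second check did not recover its step. Depth limits low genes: 1 read is worth 0.906 to 1.05 counts in the 6 libraries.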

Additional observations from a re-analysis of the deposited data

Results flagged for a closer look

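EGR1 was flagged because its late step differed between the genotypes in a test of the difference itself. The KLHL6-KO change minus the WT change was 0.5488 on the log2 scale (limma, adjusted p = 0.0082). The gene averaged 1040.0 ± 36.9 counts at 12 h and 1009.8 ± 38.5 at 8 h in KLHL6-KO cells, and 809 ± 55.4 at 12 h and 1148 ± 26.6 at 8 h in WT cells (SD, n = 3 each). The difference was positive under all 22 alternatives. It was not called without KLHL6-KO 8 h replicate 2 (adjusted p = 0.074), without WT 12 h replicate 3 (0.075) or without both KLHL6-KO replicate 1 libraries (0.075).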

How the results depend on the processing

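The 1785 genes called over the late step of KLHL6-KO cells became 1019 to 1629 when 1 library was left out, and 984 (514 higher and 470 lower) without both replicate 1 libraries, an alternative chosen after seeing the data. Other pseudocounts, filters, scalings and tools gave 1320 to 1827, and the compared groups alone 2053. The 3771 calls of WT cells became 2470 to 3896 without 1 library. The 1 genotype difference, EGR1, became 0 to 6 genes without 1 library, 0 without both KLHL6-KO replicate 1 libraries, 3 without a filter (EGR1, DTX4 and SRSF7) and 4 with DESeq2 (these 3 and JUNB). The causes were not tested. Same-numbered KLHL6-KO libraries deviated together with correlations of 0.149, 0.054 and 0.085, so the numbers were not taken to pair them, although each KLHL6-KO library correlated best with its own number. With a replicate block 2317 genes were called in KLHL6-KO cells, 4497 in WT cells and 4 for the difference. Of 127 called genes named by the rule, 85 were called under all 16 alternatives tried on them. None of the values reversed, 29 calls were lost without both replicate 1 libraries, 16 without a filter, 14 to 26 without 1 library and at most 3 under each other alternative.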
